A study of Mus musculus with 6 samples.

Results

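The 10 genes described here encode enzymes of mitochondrial fatty acid beta-oxidation, and they were found by their symbols in the deposited table of 54532 genes. They are the acyl-CoA dehydrogenases Acadvl, Acadl, Acadm and Acads, the alpha and beta subunits of the mitochondrial trifunctional protein (Hadha and Hadhb), the short- and medium-chain hydroxyacyl-CoA dehydrogenase Hadh, and the auxiliary enzymes Ech1, Eci1 and Decr1. All 10 were in the table, and all 10 were among the 12944 genes tested. RNA was sequenced from the hearts of 6 mice in 2 groups of 3, each mouse a separate library. The 3 Ctrl mice carried floxed Mrps5 alleles (Mrps5 fl/fl). The 3 cKO mice carried the same floxed alleles and MCM, a MerCreMer transgene under the alphaMHC promoter that places a tamoxifen-inducible Cre recombinase in cardiomyocytes. Both groups received tamoxifen at 45 mg/kg/day for 5 days at 8 weeks of age, and the hearts were taken 12 weeks later. The Ctrl mice lacked the Cre transgene, so that loss of Mrps5 and active Cre cannot be told apart. Mrps5 codes for a small-subunit protein of the ribosome of mitochondria, and the comparison asks how the transcriptome of the heart stood after its loss.

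Beta-oxidation shortens a fatty acyl-CoA in the mitochondrial matrix by repeated turns of dehydrogenation, hydration, a further dehydrogenation and thiolysis, and each turn releases acetyl-CoA, reduced flavin and NADH. The enzymes differ in the chain length that they accept, so that a long chain is handled first by Acadvl and Acadl and by the membrane-bound trifunctional protein, and its shortened products by Acadm, Acads and the soluble enzymes of the matrix. Ech1, Eci1 and Decr1 move or reduce the double bonds of unsaturated chains. The adult heart draws most of its energy from this pathway, and the nuclear receptors of the PPAR and ERR families are known regulators of its genes.

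The deleted gene was low in the cKO libraries. In the order of replicates 1 to 3, which holds for all values below, the Ctrl hearts held 5.20, 6.45 and 6.33 FPKM of Mrps5 (fragments per kilobase of gene, scaled by the authors to library sizes that differ from the read totals) and the cKO hearts 1.12, 1.23 and 1.31 FPKM. No cKO heart overlapped the Ctrl range, and 20.4% of the mean Ctrl level was left in heart tissue, which holds other cells besides cardiomyocytes (log2 fold change -1.65, SE 0.0944, limma adjusted p = 0.000202). At these low levels the pseudocount of 1 shrinks the log2 fold change, which was -2.20 with a pseudocount of 0.1. Read totals recovered from the table ran from 15989322 to 24875499 per heart, and a member had between 1961 and 38079 reads in a heart, for which counting error alone is 2.26% and 0.512%. The 12 cardiomyocyte markers summed to 20111 to 25316 FPKM in Ctrl and 12985 to 21039 FPKM in cKO, and markers of adipocytes summed to 27.7 to 51.0 FPKM in Ctrl and 30.9 to 45.9 FPKM in cKO. Cidea (24.5 and 29.9 FPKM on average) made up most of the adipocyte sum, which therefore says little of the other fat markers. Hearts within a group were not alike in every marker. The atrial gene Myl7 was at 679 FPKM in Ctrl replicate 1 and 495 FPKM in cKO replicate 3 against 18.1 to 170 FPKM in the other 4 hearts. The adipocyte marker Adipoq was at 3.49 and 1.70 FPKM in these hearts, against 0.342 to 0.569 FPKM in the other 4. Ucp1 was at 3.49 and 5.25 FPKM, against 0.144 FPKM or less in the other 4. Xist was at 10.7 FPKM in cKO replicate 2 and under 1 FPKM in every other heart. The study describes ventricular tissue and male mice only, whereas the labels give neither for single hearts. Xist is normally an RNA of female cells, so cKO replicate 2 stands apart from that description. The cause was not tested.

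The upstream sequences of 4 of the genes are shown because they hold a nuclear receptor motif or belong to the genes with the largest (Ech1) and the smallest (Acadl) decrease on the log2(FPKM + 1) scale, although Acads lay within 0.01 of Ech1. RefSeq gave a promoter window for 9 of the 10 members (GRCm38.p6, 250 bases before to 50 bases after the start), and none for Decr1. The windows were searched on both strands for the PPAR-type repeat AGGTCANAGGTCA, for the ERR element TCAAGGTCA and for the shared hexamer AGGTCA, which both longer motifs contain. The repeat was in 0 of the 9 windows and in 0.0396% of all 32851 windows of the same length, and the ERR element was in 0 of the 9 and in 0.423% of all. The hexamer was in 2 of the 9 windows, those of Acadvl and Acadm, and in 16.3% of all windows. The 250 bases upstream of each start are printed 5′ to 3′ on the strand of the gene, and capitals mark the hexamer or its reverse complement.
Acadvl, chr11:70015429-70015678, minus strand: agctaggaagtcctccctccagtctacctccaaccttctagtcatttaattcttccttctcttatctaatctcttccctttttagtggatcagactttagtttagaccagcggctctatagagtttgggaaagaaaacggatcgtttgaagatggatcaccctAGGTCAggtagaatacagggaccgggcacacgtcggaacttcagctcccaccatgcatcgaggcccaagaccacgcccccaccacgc
Acadm, chr3:153944644-153944893, minus strand: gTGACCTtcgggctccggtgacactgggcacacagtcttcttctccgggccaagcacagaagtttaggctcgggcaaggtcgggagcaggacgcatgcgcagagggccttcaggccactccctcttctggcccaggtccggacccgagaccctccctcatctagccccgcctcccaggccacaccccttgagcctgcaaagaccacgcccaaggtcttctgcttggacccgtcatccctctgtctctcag
Ech1, chr7:28825088-28825337, plus strand: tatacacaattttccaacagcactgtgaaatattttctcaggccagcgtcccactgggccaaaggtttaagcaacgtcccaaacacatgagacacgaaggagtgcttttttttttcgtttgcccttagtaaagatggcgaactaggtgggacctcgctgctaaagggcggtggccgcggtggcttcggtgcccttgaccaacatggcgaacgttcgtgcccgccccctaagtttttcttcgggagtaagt
Acadl, chr1:66863310-66863559, minus strand: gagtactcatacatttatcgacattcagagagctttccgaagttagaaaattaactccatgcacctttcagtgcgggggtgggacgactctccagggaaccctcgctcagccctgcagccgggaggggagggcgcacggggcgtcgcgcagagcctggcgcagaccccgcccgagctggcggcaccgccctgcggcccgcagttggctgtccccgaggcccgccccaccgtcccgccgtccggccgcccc
The hexamer began 87 bases before the start of Acadvl on the strand of the gene and 249 bases before the start of Acadm on the opposite strand. The deposited table begins Ech1 farther upstream than RefSeq does, inside the printed stretch. A match or its absence describes these letters in this window alone. The 9 windows held between 9 and 34 CpG dinucleotides against a median of 7 over all windows, and between 50.7% and 70.3% G and C against a median of 52.7%. Hadha and Hadhb lie head to head on chromosome 5, their starts 85 bases apart in the table, and their windows shared 228 of 300 bases.

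In the values as deposited all 10 enzymes were lower in every cKO heart than in any Ctrl heart, and 8 of them fell at an adjusted p under 0.05, while Acadvl and Acadl did not pass. None was higher. With each heart scaled to cardiomyocyte markers none passed, as described below. For Acadvl and Acadl the lowest Ctrl heart was only 1.08 and 1.06 times the highest cKO heart. The authors' scaling differed between the groups by a similar amount, so the separation of these 2 genes depends on it. Over all 12944 genes, 33.3% were called, 17.0% as lower and 16.3% as higher, and in 26.4% every cKO heart was below every Ctrl heart. Those 2205 genes lower and 2110 higher became 1620 and 2650 when the hearts were scaled without mtDNA-encoded genes, with 8 members still lower, and 337 and 5443 when they were scaled to cardiomyocyte markers. The median log2 fold change of the 10 members was -0.57, against -0.02 for all genes tested. Among the 605 genes with a mean level at least that of the lowest member (72.9 FPKM), 34.4% were called lower and the median was -0.14. The summed level of the 10 enzymes was 2637 to 2793 FPKM in Ctrl and 1812 to 2002 FPKM in cKO.

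**Figure D1:**
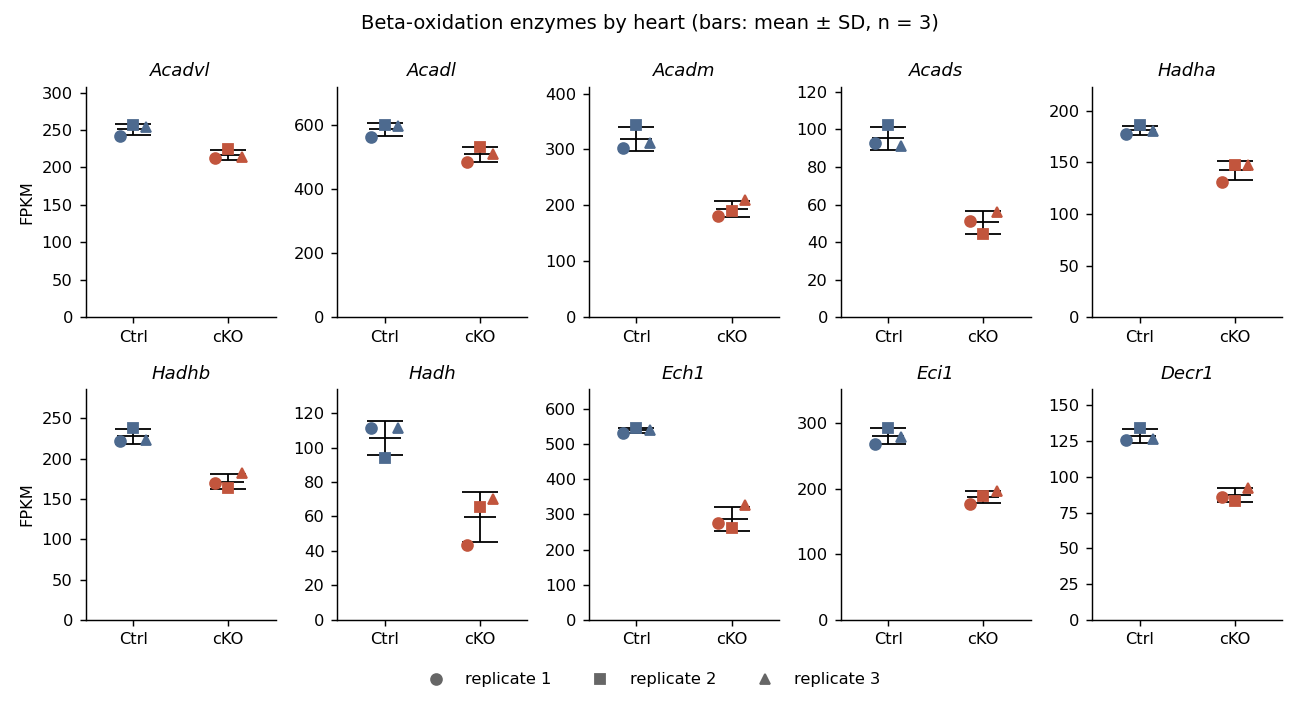
Level of each of the 10 enzymes in each heart, in FPKM as deposited on an axis from 0, with circles, squares and triangles for replicates 1, 2 and 3 and bars for the mean ± SD of 3 hearts. In every panel the 3 cKO hearts lie below the 3 Ctrl hearts, and the ratio of the lowest Ctrl heart to the highest cKO heart runs from 1.06 for Acadl to 1.63 for Ech1.

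The count depended on what the hearts were scaled to. In these libraries 6 of 12 cardiomyocyte markers also fell and 0 rose, with a median log2 fold change of -0.59. They ran from -1.43 for Pln to -0.11 for Actn2, so the markers did not move by a common amount. When each heart was scaled to those markers, 0 of the 10 members passed the threshold in either direction, their adjusted p ran from 0.122 to 0.905, and their median was -0.038 while the median of all genes moved to 0.37. Acadvl (0.32), Acadl (0.32), Hadha (0.18) and Hadhb (0.13) then had log2 fold changes above 0, and the other 6 members kept theirs below 0, from -0.38 for Acads and Ech1 to -0.03 for Decr1. The SE of Acadvl grew from 0.0704 to 0.171 under this scaling, and that of Acads from 0.104 to 0.203. The mean log2 level of the members less that of the markers was -1.97, -2.14 and -1.97 for the Ctrl hearts, against -1.92, -2.31 and -1.96 for the cKO hearts, and these values overlapped. Fewer cardiomyocytes in the tissue and less of these RNAs per cardiomyocyte cannot be told apart in bulk RNA. Markers of other cells moved as well. Of 8 endothelial markers 5 fell, with a summed level of 337 to 353 FPKM in Ctrl and 196 to 215 FPKM in cKO. Fabp4 (197 and 105 FPKM on average), which is also in the list of PPAR-responsive genes, was the largest part of that sum. Pecam1, Cdh5, Tie1 and Tek were the others that fell. The 9 fibroblast markers summed to 622 to 639 FPKM in Ctrl and 430 to 546 FPKM in cKO. Gsn (458 and 323 FPKM on average, not past the threshold) and Dcn (104 and 69.1 FPKM, the 1 that fell) made up most of the fibroblast sum, while Col3a1, Col1a1 and Postn rose. Of 9 macrophage markers 1 was lower, of 7 tested mural markers 3 were lower and 1 higher, and of 5 adipocyte and 7 blood markers tested none passed. Their part in the result was not tested. Differences between members of the pathway in the same heart, given below, do not depend on this scaling apart from the pseudocount.

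The dehydrogenases of the longest chains had the smallest decreases of the 10. Acadvl, which starts the oxidation of very long and long chains at the inner membrane, measured 242, 257 and 254 FPKM in the Ctrl hearts against 212, 224 and 214 FPKM in the cKO hearts. In the values as deposited the highest cKO heart was below the lowest Ctrl heart, and the cKO mean was 86.5% of the Ctrl mean. This came to a log2 fold change of -0.21 (SE 0.0704), which did not pass the threshold (limma adjusted p = 0.0603). Acadl, the long-chain enzyme of the matrix and the most abundant of the 10 per kilobase of gene, measured 563, 599 and 595 FPKM in the Ctrl hearts against 485, 529.5 and 508 FPKM in the cKO hearts. Here too the groups did not overlap as deposited, with the lowest Ctrl heart 1.06 times the highest cKO heart. With a log2 fold change of -0.21 (SE 0.0774), Acadl did not pass either (limma adjusted p = 0.0800).

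The dehydrogenases of shorter chains fell further. Acadm, the medium-chain enzyme, measured 302, 343 and 312 FPKM in the Ctrl hearts against 181, 190.5 and 210.0 FPKM in the cKO hearts. The groups lay well apart, and 60.7% of the mean Ctrl level remained (log2 fold change -0.72, SE 0.0915, limma adjusted p = 0.00249). Acads, the short-chain enzyme, measured 92.9, 102 and 90.9 FPKM in the Ctrl hearts against 51.1, 44.3 and 56.2 FPKM in the cKO hearts. Its lowest Ctrl heart was 1.62 times its highest cKO heart, and 53.0% of the Ctrl level was left (log2 fold change -0.91, SE 0.104, limma adjusted p = 0.00186).

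Whether single genes changed unlike Acadvl was tested on the ratio of each gene to Acadvl within a heart, by limma across all genes. This test was chosen after the data had been seen, and it compares genes, not classes of chain length. Acadm fell against Acadvl by 0.51 on the log2 scale (95% interval of the cKO minus Ctrl difference -0.725 to -0.297, adjusted p = 0.00545). Acads fell against Acadvl by 0.70 (interval -0.979 to -0.422, adjusted p = 0.00450). Acadl did not differ past the threshold from Acadvl in its change, with a difference of 0.00046 (interval -0.166 to 0.167, adjusted p = 0.997). On each side this interval reaches nearly the size of either gene's own log2 fold change (-0.21). Over all genes, 7.66% were called lower against Acadvl and 34.8% higher, and of the other 9 members 6 were called lower and 0 higher. Those 6 were Acadm, Acads, Hadh, Ech1, Eci1 and Decr1, and all of these differences share the same Acadvl values. Acadm, Acads, Ech1 and Eci1 stayed under the threshold in all 7 fits that left out a heart or the pair of Ctrl replicate 1 and cKO replicate 2. Hadh passed in 4 of those fits and lost the call without Ctrl replicate 1 (adjusted p = 0.0866), without Ctrl replicate 3 (adjusted p = 0.0863) and without the pair (adjusted p = 0.0945). Decr1 lost it without Ctrl replicate 2 (adjusted p = 0.0615) and without the pair (adjusted p = 0.0709).

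Within each heart the log2 ratio of Acads to Acadvl on the FPKM scale was -1.38, -1.33 and -1.48 in Ctrl and -2.06, -2.34 and -1.93 in cKO. The log2 ratio of Acadm to Acadvl was 0.32, 0.42 and 0.30 in Ctrl and -0.23, -0.24 and -0.03 in cKO, so that Acadm was above Acadvl in every Ctrl heart and below it in every cKO heart per kilobase of gene. Per kilobase of the principal coding transcript Acadm was the higher in both groups, at 610.3 against 311 in Ctrl and 370.3 against 269 in cKO. The log2 ratio of Acadl to Acadvl was 1.22, 1.22 and 1.23 in Ctrl and 1.19, 1.24 and 1.24 in cKO, and the groups overlapped. The exact two-sided permutation test gave p = 0.1 for Acadm and for Acads, the smallest that 3 hearts against 3 allow (adjusted p = 0.133 over 8 ratios), and p = 1 for Acadl.

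**Figure D2:**
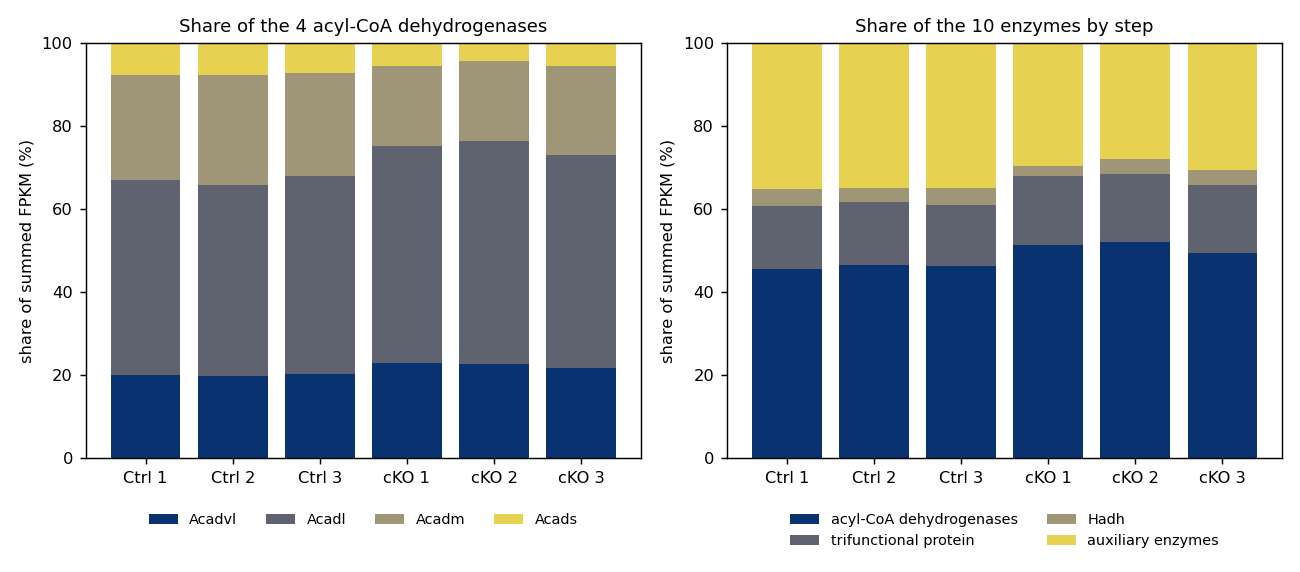
Share of each of the 4 acyl-CoA dehydrogenases in their summed FPKM (left) and of each step in the summed FPKM of the 10 enzymes (right), in percent, with 1 bar per heart. The parts of Acadvl and Acadl are wider in each cKO heart than in any Ctrl heart, and those of Acadm, Acads and the auxiliary enzymes are narrower.

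As a share of the 4 dehydrogenase transcripts, Acadl took 46.8% ± 0.771 (SD, n = 3) in Ctrl and 52.4% ± 1.11 in cKO, and Acadvl took 20.1% ± 0.296 and 22.4% ± 0.630. Acadm took 25.5% ± 0.792 and 19.99% ± 1.10, and Acads 7.62% ± 0.315 and 5.22% ± 0.650. The hearts of the 2 groups did not overlap in any of these shares. Each gave an exact permutation p = 0.1, the smallest possible (adjusted p = 0.114 over 8 shares).

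The trifunctional protein carries the next 3 reactions for long chains, with hydratase and dehydrogenase on the alpha subunit and thiolase on the beta subunit. Hadha measured 177, 186 and 180.3 FPKM in the Ctrl hearts against 131, 148 and 148 FPKM in the cKO hearts. Replicate 1 was the lowest cKO heart, the groups did not overlap, and 78.5% of the Ctrl level was left (log2 fold change -0.35, SE 0.0784, limma adjusted p = 0.0157). This call was lost without Ctrl replicate 2 (adjusted p = 0.0535), without Ctrl replicate 3 (adjusted p = 0.0531) and without the pair of Ctrl replicate 1 and cKO replicate 2 (adjusted p = 0.0528). Over all alternatives its adjusted p ran from 0.0143 to 0.385, the latter under the marker scaling. Hadhb measured 222, 238 and 223 FPKM in the Ctrl hearts against 169.9, 163 and 182 FPKM in the cKO hearts. All cKO hearts were below the Ctrl hearts, and the mean was 75.4% of Ctrl (log2 fold change -0.41, SE 0.0774, limma adjusted p = 0.00892).

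The ratio of the 2 subunit genes did not differ past the threshold. The log2 ratio of Hadhb to Hadha was 0.32, 0.36 and 0.30 in Ctrl and 0.37, 0.14 and 0.30 in cKO, overlapping between groups (exact permutation p = 0.6). In the limma fit of ratios to Hadha the difference was -0.06 (95% interval -0.283 to 0.168, adjusted p = 0.627). Neither subunit differed past the threshold from Acadvl in its change, with differences of -0.14 for Hadha (interval -0.323 to 0.0429, adjusted p = 0.183) and -0.20 for Hadhb (interval -0.401 to 0.00603, adjusted p = 0.105). The 4 genes of the long-chain steps thus had log2 fold changes between -0.41 and -0.21.

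Hadh carries the dehydrogenation of hydroxyacyl-CoA for medium and short chains in the matrix and had the widest spread of the 10. It measured 111, 94.0 and 111 FPKM in the Ctrl hearts against 43.3, 65.8 and 70.2 FPKM in the cKO hearts. Replicate 1 was well below the other cKO hearts and Ctrl replicate 2 below the other Ctrl hearts, yet the groups did not overlap. The mean was 56.6% of Ctrl (log2 fold change -0.84, SE 0.185, limma adjusted p = 0.0147), and the call was lost without Ctrl replicate 3 (adjusted p = 0.0524) and without the pair of Ctrl replicate 1 and cKO replicate 2 (adjusted p = 0.0569), in a range of 0.00802 to 0.223 over all alternatives. The ratio of Hadh to Hadha, its counterpart for long chains, fell by 0.49 on the log2 scale (interval -0.857 to -0.120, limma adjusted p = 0.0326), but passed in 3 of the 7 fits with hearts left out, the exceptions being those without Ctrl replicate 1 (adjusted p = 0.0956), Ctrl replicate 3 (0.0931), cKO replicate 1 (0.0662) and the pair (0.0742).

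Ech1, the isomerase that shifts conjugated double bonds of dienoyl-CoA, and Acads had the largest decreases of the 10 when all 6 hearts entered. Ech1 measured 532, 547 and 540.1 FPKM in the Ctrl hearts against 276, 260.3 and 325 FPKM in the cKO hearts. The Ctrl hearts lay within a coefficient of variation of 1.39%, and the lowest of them was 1.63 times the highest cKO heart. The cKO mean was 53.2% of Ctrl (log2 fold change -0.91, SE 0.0998, limma adjusted p = 0.00162). Which of the 2 came first depended on the scale, with Ech1 at -0.914 and Acads at -0.908 with a pseudocount of 1 and at -0.916 and -0.921 with a pseudocount of 0.1.

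Eci1, the enoyl-CoA isomerase that brings an out-of-place double bond into the pathway, measured 269, 293 and 279 FPKM in the Ctrl hearts against 177, 189 and 196 FPKM in the cKO hearts (66.9% of Ctrl, log2 fold change -0.58, SE 0.0779, limma adjusted p = 0.00290). Decr1, the dienoyl-CoA reductase, measured 125, 134 and 126 FPKM in the Ctrl hearts against 86.1, 82.9 and 92.3 FPKM in the cKO hearts (67.7% of Ctrl, log2 fold change -0.56, SE 0.0753, limma adjusted p = 0.00291). In both genes the groups were well separated. Over all genes, 4.62% were called lower against Hadha and 49.6% higher, and of the other 9 members 4 were called lower and 0 higher, namely Acadm, Acads, Hadh and Ech1. Ech1 fell against Hadha by 0.57 (interval -0.820 to -0.312, adjusted p = 0.00484), whereas the differences of Eci1 (-0.23, adjusted p = 0.0531) and Decr1 (-0.21, adjusted p = 0.0993) did not pass. Acads and Ech1 passed in all 7 fits with hearts left out, and Acadm lost the call without Ctrl replicate 2 (adjusted p = 0.0562) and without the pair (adjusted p = 0.0719).

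**Figure D3:**
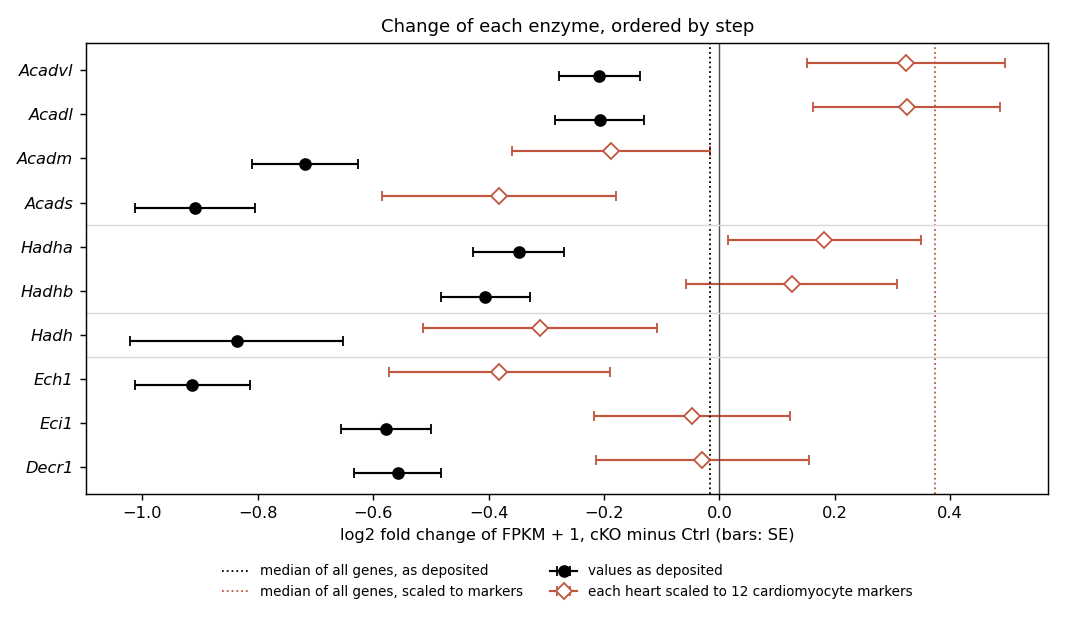
log2 fold change of FPKM + 1 (cKO minus Ctrl) of each enzyme with its SE, for the values as deposited (filled circles) and with each heart scaled to 12 cardiomyocyte markers (open diamonds), where dotted lines mark the median of all genes under each scaling. Acadm, Acads, Hadh and Ech1 lie lowest under both, and Acadvl, Acadl, Hadha and Hadhb move from below 0 to above 0 under the marker scaling.

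By step, the dehydrogenases took 46.1% ± 0.524 (SD, n = 3) of the summed FPKM of the 10 enzymes in Ctrl and 50.9% ± 1.40 in cKO, and the trifunctional protein 15.1% ± 0.176 and 16.5% ± 0.123. The auxiliary enzymes went from 34.9% ± 0.149 to 29.5% ± 1.34. These 3 steps were separated between groups, each at an exact permutation p = 0.1 (adjusted p = 0.114). Hadh took 3.90% ± 0.464 in Ctrl and 3.12% ± 0.635 in cKO, with overlap (exact permutation p = 0.3). On recovered reads not divided by gene length, the difference between groups in percentage points went from 4.81 to 2.03 for the dehydrogenases and from 1.43 to 3.04 for the trifunctional protein.

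The order of levels per kilobase of gene in Ctrl was Acadl, Ech1, Acadm, Eci1, Acadvl, Hadhb, Hadha, Decr1, Hadh and Acads, and only the last pair overlapped between hearts. In cKO the order was Acadl, Ech1, Acadvl, Acadm, Eci1, Hadhb, Hadha, Decr1, Hadh and Acads, with Acadm and Eci1, Eci1 and Hadhb, and Hadh and Acads overlapping as neighbours. Acadvl thus passed from the fifth place to the third, whereas per kilobase of the principal coding transcript it was in place 6 in both groups. The order rests on the gene length used for FPKM, which was 0.960 to 3.22 times the length of that transcript, the latter for Hadhb with 6595 against 2048 bases. Per kilobase of that transcript, Ech1 led in Ctrl at 972.5, followed by Hadhb at 732 and Acadl at 613, and in cKO Hadhb led at 552, followed by Acadl at 531 and Ech1 at 518. The ratio of a gene's FPKM between groups does not depend on this length.

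In the values as deposited the hearts kept a common order in many of the members. Ctrl replicate 2 was the highest Ctrl heart in 9 of 10 members and replicate 1 the lowest in 8. This order depends on the authors' scaling. The library size implied by FPKM was 0.913 of the read total in Ctrl replicate 2, against 0.980 and 0.972 in replicates 1 and 3. That raises all genes of Ctrl replicate 2 relative to its reads, and the same order over all genes was not counted. Among the cKO hearts, replicate 3 was the highest in 7 and replicate 2 in 3, while replicate 1 was the lowest in 6 and replicate 2 in 4. The coefficient of variation ran from 1.39% to 9.47% in Ctrl and from 2.95% to 24.2% in cKO, the highest in each group being Hadh.

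The 10 genes lie on 7 chromosomes in the coordinates of the table, which match GRCm38. Acadvl (ENSMUSG00000018574) is at chr11:70010183-70015411, Acadl (ENSMUSG00000026003) at chr1:66830839-66863277, Acadm (ENSMUSG00000062908) at chr3:153922357-153944632 and Acads (ENSMUSG00000029545) at chr5:115110299-115119346. Hadha (ENSMUSG00000025745) is at chr5:30118304-30155162, Hadhb (ENSMUSG00000059447) at chr5:30155248-30184593 and Hadh (ENSMUSG00000027984) at chr3:131233419-131272101. Ech1 (ENSMUSG00000053898) is at chr7:28825217-28832247, Eci1 (ENSMUSG00000024132) at chr17:24426683-24439316 and Decr1 (ENSMUSG00000028223) at chr4:15917240-15945507. Acadvl overlaps the antisense gene Dvl2 by 2119 bases, Acadl the processed pseudogene Gm15793 by 495 and Hadha the antisense gene Garem2 by 75. Whether the counting used strand is not stated, but these neighbours averaged 1.29, 0.293 and 0.0448 FPKM, far below the members.

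The remaining enzymes of the matrix spiral split in the same table. Of 9 genes, 5 fell and 4 did not pass, with a median log2 fold change of -0.56. Acaa2, the thiolase of medium and short chains, went from 543, 557 and 538 FPKM to 282, 296 and 306 FPKM (log2 fold change -0.89, limma adjusted p = 0.000802). Acat1, which cleaves acetoacetyl-CoA, changed by -0.88 (adjusted p = 0.00315) and Echs1, the short-chain hydratase, by -0.56 (adjusted p = 0.00655). Acad11 (-0.77) and Acad12 (-0.96) also fell. The matrix dehydrogenase Hsd17b10 (-0.22), the isomerase Eci2 (-0.22), the complex I assembly factor Acad9 (0.11) and Acad10 (-0.05) did not pass. In the limma fit of ratios to Acadvl, Acaa2, Acat1, Echs1, Acad11 and Acad12 were lower and Acad9 was higher (0.32, adjusted p = 0.0357). Hsd17b10 (-0.017, adjusted p = 0.902), Eci2 (-0.012, adjusted p = 0.936) and Acad10 did not differ past the threshold from Acadvl in their change. Electrons from the acyl-CoA dehydrogenases pass to electron transfer flavoprotein and its dehydrogenase, whose 3 genes all fell as deposited and stayed below 0, past no threshold, under the marker scaling. Etfa changed by -0.72 (adjusted p = 0.00272), Etfb by -0.55 (adjusted p = 0.00334) and Etfdh by -0.82 (adjusted p = 0.00183).

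Before the spiral, 14 of 16 genes of fatty acid uptake, activation and the carnitine shuttle were tested, of which 9 fell and 1 rose. They ran from Acsl1, the main acyl-CoA synthetase of the heart, at -0.75 to Acsl5 at 0.39. Malonyl-CoA and thioesterase genes went both ways, with 4 of 10 lower and 3 higher, from Acot1, a cytosolic thioesterase, at -0.92 to Acot2, its mitochondrial relative, at 1.29. Peroxisomal beta-oxidation had 6 of 15 tested genes lower and 2 higher, from Ehhadh, its bifunctional enzyme, at -1.24 to Acox2, the oxidase of branched chains and bile acid intermediates, at 1.93. Acox2 measured 0.198, 0.234 and 0.145 FPKM in the Ctrl hearts against 4.96, 2.31 and 3.71 FPKM in the cKO hearts. At such low levels the pseudocount of 1 shrinks the value, and the log2 fold change of Acox2 was 3.63 with a pseudocount of 0.1 and 4.15 with voom on the recovered reads. The near-identical sequences of Acot1 and Acot2 could share reads, so that their opposite values are uncertain. Some calls depended on the genes or hearts that entered. With no filter neither Acsl5 (adjusted p = 0.0739) nor Acot1 (adjusted p = 0.0704) passed. The call of Acsl5 was lost when any 1 of the 3 Ctrl hearts, cKO replicate 1 or cKO replicate 2 was left out (adjusted p = 0.0541 to 0.0926), and that of Acot1 without cKO replicate 1 (adjusted p = 0.0743) or cKO replicate 2 (adjusted p = 0.0528).

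Beside the spiral, the 6 propionyl-CoA genes all fell as deposited, from Mut (-0.90) to Mmaa (-0.32, and 0.13 under the marker scaling), and so did the 4 acyl-CoA dehydrogenases of amino acid breakdown, from Ivd (-1.55) to Acad8 (-0.50), of which 2 still fell under the marker scaling. Acad8 did not pass without the pair of Ctrl replicate 1 and cKO replicate 2 (adjusted p = 0.0548). Ivd, the isovaleryl-CoA dehydrogenase, went from 77.0, 90.7 and 78.8 FPKM to 23.9, 24.8 and 34.2 FPKM. Of 17 citrate cycle genes 11 fell and 0 rose, from Idh2 (-0.94) to Idh3a (-0.07, not past the threshold). Of 13 tested regulators 6 fell and 1 rose, from Klf15 (-0.999) to Ppard (0.30). Of 10 PPAR-responsive genes outside the cycle 5 fell and 1 rose, from Vldlr (-1.71) to Angptl4 (1.46). The call of Ppard was lost when any 1 of the 6 hearts was left out (adjusted p = 0.0514 to 0.129), that of Mmaa when any 1 of the Ctrl hearts or cKO replicate 1 was left out (adjusted p = 0.0542 to 0.0861), and that of Angptl4 without Ctrl replicate 2 (adjusted p = 0.0682), Ctrl replicate 3 (adjusted p = 0.0565) or cKO replicate 3 (adjusted p = 0.0549). With no filter none of the 3 passed (adjusted p = 0.0883 for Ppard, 0.0516 for Mmaa and 0.0654 for Angptl4), nor did Mmaa with scaling without mtDNA-encoded genes (adjusted p = 0.0537) or Ppard with a replicate block (adjusted p = 0.0908). Over these lists together, 59 of 101 tested genes were lower and 8 higher, with a median of -0.41. Beside these counts and those of the single lists stand 17.0% lower and 16.3% higher over all 12944 genes tested as deposited. Among the 605 genes at or above the level of the lowest member, 34.4% were lower and 22.3% higher. When each heart was scaled to the cardiomyocyte markers, 5 of these were lower and 16 higher. Of all 12960 genes tested under that scaling, 337 were lower and 5443 higher, with a median log2 fold change of 0.37. Citrate cycle genes then lay below 0 in 3 of 17.

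**Figure D4:**
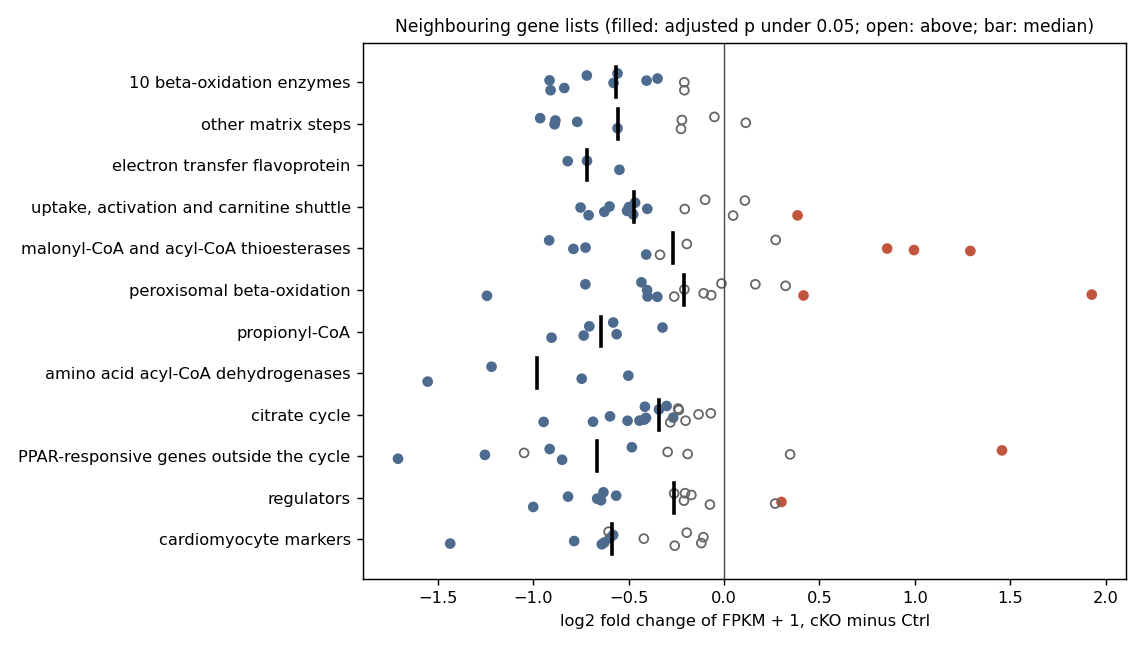
log2 fold change of FPKM + 1 (cKO minus Ctrl) of each tested gene in the 10 enzymes, in neighbouring gene lists and in the cardiomyocyte markers, filled blue (lower) or red (higher) where the adjusted p was under 0.05, open where not, with a bar at the median of each list. The 10 enzymes, the cardiomyocyte markers and the lists of the electron transfer flavoprotein, propionyl-CoA, amino acid dehydrogenases and citrate cycle lie wholly below 0. The remaining lists reach to both sides.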

How the data were processed

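RNA from 3 Ctrl and 3 cKO mouse hearts was sequenced, and groups and replicate numbers were taken from the sample titles. The authors prepared poly-A selected paired-end libraries, aligned reads with HISAT2 2.0.5, counted them per gene with featureCounts 1.5.0-p3 and deposited FPKM values with the gene length, whereas their own test used DESeq2, as version 1.16.1 in the submitters' processing notes (the source of these versions) and as another in the study's methods. The study's methods describe ventricular tissue and littermate controls. The submitters' processing notes name mm9, whereas the table's coordinates match GRCm38 (53499 of 54409 shared identifiers had identical start and end). Whole reads were recovered from FPKM times gene length for 100% of values (tolerance 0.01 of a read), and the library sizes implied by FPKM were 0.913 to 0.980 of the read totals in Ctrl and 1.06 in cKO, so the values had been scaled between samples.

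The fit used log2(FPKM + 1), a scale on which changes of low genes come out too small. Genes averaging 0.5 FPKM or more (12944) were fitted with limma 3.58.1 in R 4.3.3 (lmFit, eBayes with trend, two-sided, no covariates), with Benjamini-Hochberg adjustment over all genes and a threshold of 0.05. Shares and ratios per heart were compared by exact permutation. The ratio fits repeated limma on the difference of each gene to Acadvl or Hadha, without trend. The fit was tested on 5 simulated tables with 200 changed genes, of which it recovered 16.9% at a log2 change of 0.5, 66.9% at 1 and 90.7% at 2, with 5.90% of calls false. Members and gene lists were chosen with earlier results of these data known. Named genes are the 10 members, Mrps5, all tested genes of the matrix and electron transfer flavoprotein lists, and the highest and lowest change in each further list, and sequences are those of members with a searched motif or with the largest or smallest change. The hexamer search by itself, Dvl2, Gm15793, Garem2, Myl7, Xist and the other cell type markers named singly were added after values were seen. Alternatives were a pseudocount of 0.1, no filter, a filter at 1 FPKM, median-of-ratios scaling, scaling without mtDNA-encoded genes or to cardiomyocyte markers, voom on recovered reads, eBayes without trend, a replicate block and leaving out hearts. A gene of the lists is not reported here. The p-values measure the spread between these hearts.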

Additional observations from a re-analysis of the deposited data

How the results depend on the processing

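The count of 8 lower members was 8 with a pseudocount of 0.1, with no filter, with a filter at 1 FPKM, with median-of-ratios scaling, with scaling without mtDNA-encoded genes, with voom on the recovered reads (2334 genes lower and 2169 higher overall) and without trend, and 6 to 8 when 1 heart was left out (6 without Ctrl replicate 3). With all 12944 genes the lower count was then 1434 to 2006 and the higher count 1400 to 1993, against 2205 and 2110, and the other lists of the pathway had as few as 4 genes higher. Without both Ctrl replicate 1 and cKO replicate 2, an alternative chosen after seeing the data, 6 members, 1437 genes lower and 1400 higher were called. With no filter, 5 genes of the other lists were higher.

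Scaling to cardiomyocyte markers gave 0 lower members, a member median of -0.038, 337 genes lower and 5443 higher, and 5 lower and 16 higher genes in the other lists. The sign turned for Acadvl (0.32), Acadl (0.32), Hadha (0.18), Hadhb (0.13), Hsd17b10 (0.30), Eci2 (0.29), Acad10 (0.20), Mmaa (0.13) and Idh3a (0.46), and the cause was not tested. Scaling without mtDNA-encoded genes gave a member median of -0.48, 1620 genes lower and 2650 higher, and 0.019 for Idh3a. With hearts left out, Acad10 ran from -0.17 to 0.051. On recovered reads not divided by length, the share differences were 2.03 percentage points for the dehydrogenases, 3.04 for the trifunctional protein, -3.85 for the auxiliary enzymes, 3.25 for Acadvl and -7.04 for Acadm. Outside the marker scaling, 545 of the values of 39 named genes over 15 alternatives kept direction and side of the threshold, 36 lost the threshold and 3 turned.

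Replicate numbers are shared by both groups, and deviations of same-numbered hearts correlated at -0.0554, 0.175 and -0.0148. The hearts were therefore not treated as pairs. Differently numbered hearts were not compared in this way, so these values cannot exclude a pairing, for instance by litter. With a replicate block, 8 members, 1982 genes lower and 1874 higher were called. With 3 hearts a group, the recovery of small changes was low in the simulated tables, which held 200 changed genes drawn from all tested levels. In the data far more genes were called and the members lie at high levels, so these rates do not give the power for the members. A gene past no threshold may still have changed.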
